A study of Mus musculus with 8 samples.

Results

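The genes described are 10 factors that act in meiotic recombination, namely Dmc1, Spo11, Msh4, Msh5, Ccnb1ip1, Mnd1, Psmc3ip, Hfm1, Prdm9 and Tex11, among 19674 named genes on the array. Every non-control probe that carried one of these names in the scanner files was taken. An older name was followed through the probe's accession or the older symbols of a gene table, so that Ccnb1ip1 was found under Gm288. This gave 14 probes for the 10 genes, with 3 for Msh5, 2 each for Spo11 and Psmc3ip, and 1 for each of the others. The arrays came from RNA immunoprecipitation (RIP), in which an RNA-binding protein is captured from a lysate with its antibody and the co-purified RNA is set against the RNA of the lysate before capture (input). The antibody was against DAZL, an RNA-binding protein of germ cells, and the tissue was the whole gonad of E14.5 mouse embryos of the MCH strain, pooled in lots of 50 XX or XY gonads. There were 4 groups of 2 arrays, the input and the immunoprecipitate (IP) of each sex, and no group carried a mutation or a treatment. The arrays include no precipitation with a control antibody, so that RNA held by the beads alone was not measured.

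In meiotic recombination the endonuclease SPO11 cuts both strands of the DNA at many sites, and PRDM9, a histone methyltransferase with DNA-binding zinc fingers, marks where these breaks are made. The resected ends are then coated by recombinases, among them DMC1, and the HOP2-MND1 complex, whose HOP2 subunit is encoded by Psmc3ip, helps DMC1 to invade the homologous chromosome. The MSH4-MSH5 heterodimer holds the joint molecules, HFM1 is a helicase of the crossover pathway, TEX11 is an X-linked protein of the recombination sites, and CCNB1IP1 (HEI10) is a RING-finger ligase that is needed for crossovers. In the mouse, XX germ cells enter meiosis in the fetal ovary, while XY germ cells of the same stage arrest in the fetal testis and begin meiosis only after birth. Since whole gonads were lysed, fewer cells that express a gene and less of its RNA per cell cannot be told apart in the inputs.

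All levels are log2 values of the processed scanner signal relative to the 75th percentile of the same array, so that 0 is that percentile and 1 unit is a doubling. The IP arrays were much dimmer than the inputs, with 14.8% to 23.0% of probes well above background against 40.7% to 49.6%. The lowest signal counted as well above background on an IP array lay at 0.03 to 1.02, that is, above the 75th percentile itself, while on the inputs it lay at -3.59 to -2.34. The 18009 probes that were above background on no array had a median difference of IP minus input of 3.61 in XX and 3.32 in XY on this scale, with 5th to 95th percentiles of 2.48 to 4.07 and of 2.25 to 3.90. A positive difference of this size was thus usual for probes at background in both, and a probe whose IP was not measured on either array is given below only with a bound, or with no fold where no bound above 1 could be had. The XX arrays lay on 1 slide and the XY arrays on another, so that in every comparison of the sexes the slide and the sex cannot be told apart. The labels were checked with Eif2s3y and Ddx3y, which were above background on both XY inputs and neither XX input. For Xist the reverse was found at probe A_51_P145453, while its other probes were not above background on both XX inputs. The antibody's own target Dazl was above background on all 8 arrays, at both of its probes, and its log2 difference of IP minus input was 2.69 and 3.09 in XX and 2.06 and 2.93 in XY. Of the marker genes for the cells of these gonads, 5 of 6 for germ cells were above background on both XX inputs and 6 of 6 on both XY inputs, and 2 of 4 for XX supporting cells (Wnt4 and Fst, but not Foxl2) were on both XX inputs and 1 of 4 on both XY inputs.

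In the inputs the recombination genes were detected more often in XX than in XY gonads. Of the 14 probes, 10 were well above background on both XX inputs and 5 on both XY inputs. In the immunoprecipitates 2 were above background on both XX arrays, those of Ccnb1ip1 and 1 of Spo11, and 1 was on both XY arrays, that of Ccnb1ip1. Of the 10 probes measured on both XX inputs, 20.0% were also measured on both XX IPs, and among all probes on the array it was 33.9% of 16443. In XY it was 1 of 5 and 31.9% of 17175. A probe entered the tests if both arrays of some group measured it above background, and 11 probes of 8 genes did. Where only XX groups did so, the adjusted p for the XX over the XY input is given as a description. The probes of Prdm9 and Hfm1 and 1 of Msh5 were above background on no array and were not tested. The plot of the members on the 8 arrays shows these values side by side.

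**Figure D1:**
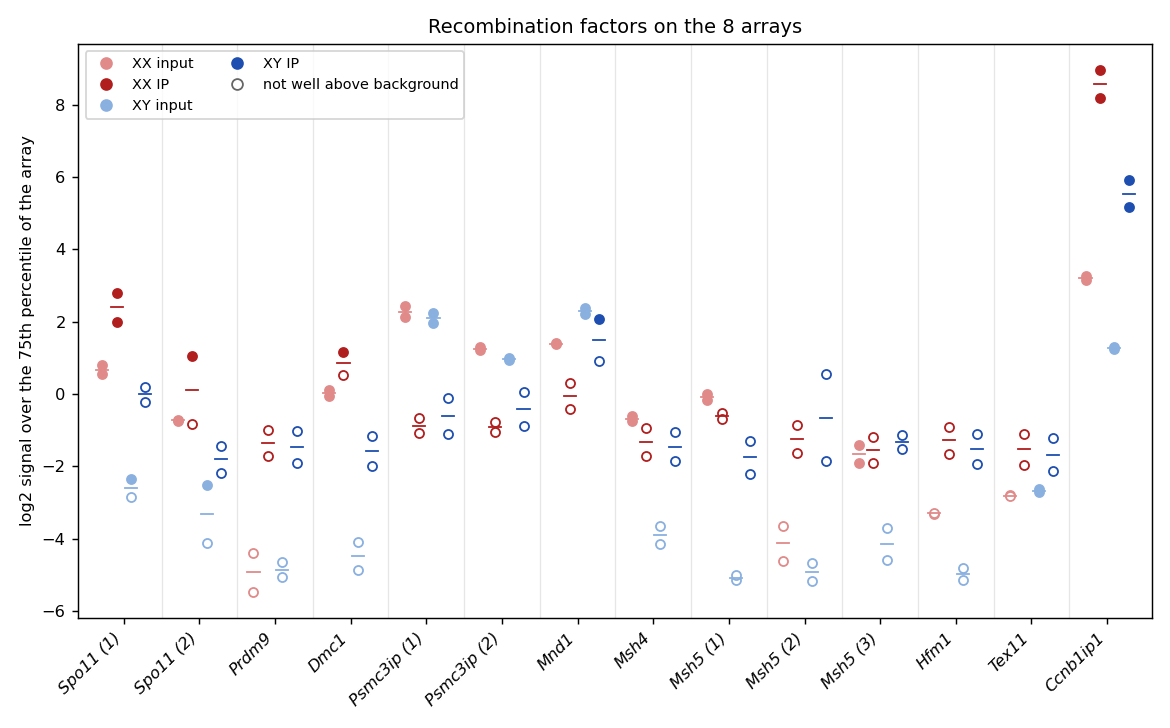
Level of each of the 14 probes on each array, as log2 signal over the array's 75th percentile, with numbers in brackets for probes of the same gene. Filled points were well above background and open points were not, short lines are means of 2 arrays, and only Ccnb1ip1 has filled points in all 4 groups.

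Among the factors of break formation, Spo11 was measured at a pair of places 1320 bases apart on mm8 chromosome 2. The probe A_51_P290542 (mm8 chr2:172636309-172636368) had 0.55 and 0.79 in the XX inputs, 1.98 and 2.80 in the XX IPs, -2.86 and -2.35 in the XY inputs and 0.18 and -0.22 in the XY IPs. It was above background on all XX arrays, on 1 XY input and on no XY IP, and no XX array overlapped an XY array of the same kind. Its XX input was 3.27 log2 above the XY input (SE 0.43, limma adjusted p = 0.000389), a 9.67-fold difference in which 1 of 2 XY inputs was measured. In XX the IP lay 1.72 above the input (SE 0.43, adjusted p = 0.00647), which is 3.30-fold and under the 4-fold limit set for the IPs. Without 1 array at a time that difference ranged from 1.32 to 2.13, reaching 4-fold only without the first XX IP. Under scaling to the 50th percentile it was -0.28, while the median of all tested probes moved from 0.09 to -1.92.

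The other Spo11 probe, A_52_P660477 (mm8 chr2:172634989-172635048), showed the same order of the inputs. Its levels were -0.72 and -0.75 in the XX inputs, -0.83 and 1.05 in the XX IPs, -2.51 and -4.12 in the XY inputs and -1.44 and -2.18 in the XY IPs. The XX input was 2.59 above the XY input (SE 0.65, adjusted p = 0.0211), with 1 of 2 XY inputs measured, and this call was lost when either XX input or the second XY input was left out, with adjusted p from 0.058 to 0.204. The XX IP arrays lay on both sides of the inputs, 1 of them above background, and the difference of 0.84 (SE 0.65, adjusted p = 0.297) did not pass.

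Prdm9, which marks the sites of breaks, was not well above background on any array (A_51_P215513, mm8 chr17:15262156-15263752). Its input levels were -5.47 and -4.40 in XX and -5.07 and -4.66 in XY, and its IP levels were -1.00 and -1.71 in XX and -1.02 and -1.92 in XY. The gap between inputs and IPs in these numbers is within the range of the probes at background everywhere, and Prdm9 RNA was not detectable with this probe.

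Among the factors of strand exchange, the recombinase gene Dmc1 was measured in the XX inputs and not in the XY inputs. Its probe A_51_P289131 (mm8 chr15:79389249-79389308) had 0.11 and -0.04 in the XX inputs, 0.52 and 1.17 in the XX IPs, -4.11 and -4.88 in the XY inputs and -1.15 and -2.00 in the XY IPs. It was above background on both XX inputs and 1 XX IP and on no XY array. The XX input was at least 7.64-fold above the XY input (log2 difference of the measured means 4.53, SE 0.46, adjusted p = 6.62e-05). The probe entered the tests only through the XX inputs, so that this p is a description. In XX both IPs lay above both inputs, by a mean of 0.81 (SE 0.46, adjusted p = 0.162), which did not pass.

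Psmc3ip, which encodes the HOP2 subunit, showed another pattern, with like inputs in the sexes and low IPs in both. The probe A_51_P256706 (mm8 chr11:100908506-100908640) had 2.12 and 2.42 in the XX inputs and 1.97 and 2.24 in the XY inputs, which overlap. The difference of 0.16 between them (SE 0.44, adjusted p = 0.893) had a 95% interval of -0.80 to 1.12 on the log2 scale. In the IPs the probe had -1.08 and -0.67 in XX and -1.11 and -0.11 in XY, and none of these was above background. The IP was at least 3.06-fold below the input in XX (measured difference -3.14, SE 0.44, adjusted p = 0.000247) and at least 3.11-fold below it in XY (-2.71, SE 0.44, adjusted p = 0.000803). Both calls were lost with the normexp background correction (-1.93 and -1.02), with normexp and replaced local backgrounds (-1.93 and -1.61), with a common floor at the highest detection level of any array (-1.24 and -1.08) and with the unmoderated test (adjusted p = 0.104 and 0.151).

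The other Psmc3ip probe, A_52_P238044 (mm8 chr11:100908995-100909054), starts 489 bases away and ran the same way. It had 1.29 and 1.21 in the XX inputs, -1.04 and -0.76 in the XX IPs, 0.94 and 0.99 in the XY inputs and 0.04 and -0.89 in the XY IPs. No IP was above background and no IP overlapped an input. The bounds were at least 1.51-fold lower in the XX IP (measured difference -2.15, SE 0.42, adjusted p = 0.00166) and at least 1.41-fold lower in the XY IP (-1.39, SE 0.42, adjusted p = 0.0209), the latter under 4-fold as measured. The XX call was lost under the same 4 alternatives, with -1.06, -1.06 and -0.22 in the first 3 and an adjusted p of 0.101 in the last. Marker genes of endothelium and blood were also low in the IPs, with 0 of 3 and 1 of 3 above background on both IPs, in XX and in XY, against 2 of 3 and 3 of 3 on both inputs. Of the XY supporting cell markers, 4 of 4 were above background on both XY inputs and 1 of 4, Sox9, on both XY IPs. The tested Sox9 probes differed by 0.01 and -0.39 in XY and did not pass. Of 3 Leydig cell markers with a probe, 3 were on both XY inputs and 0 on both XY IPs. Of 4 XX supporting cell markers, 2 were on both XX inputs and 0 on both XX IPs. The markers of germ cells went both ways in the XX IP. Dppa3, Tdrd1, Stra8 and Sycp3 were called higher there, with differences of 2.11 to 2.75, and Sycp1 lower with -2.43. Sycp1 had 3.17 and -0.56 in the XX IPs, and only 1 of these was above background. Ddx4 (1.91), Mael (-0.59) and both probes of Rec8 (-1.55 and -1.14) did not pass in XX. Nor did Pou5f1 and Dnd1, which were above background on no XX IP. In the XY IP Dppa3, Stra8, Sycp3 and Tdrd1 were called higher, with differences of 2.91, 2.86, 2.39 and 2.32. Ddx4 (1.78), Dnd1 (0.54) and Mael (-0.92) did not pass in XY. Nor did Pou5f1, Sycp1 and Rec8, which were not above background on both XY IPs. Whether cells other than germ cells held the Psmc3ip RNA was not tested.

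Mnd1, the partner of HOP2, had both XY inputs above both XX inputs. Its probe A_51_P155966 (mm8 chr3:84173975-84174034) had 1.41 and 1.38 in the XX inputs and 2.38 and 2.22 in the XY inputs, with no overlap. The XX minus XY difference was -0.91 (SE 0.46, adjusted p = 0.273) and did not pass in the fit over all 8 arrays, while with only the 4 inputs in the fit its adjusted p was 0.0067. The IP levels were -0.41 and 0.30 in XX, neither above background, and 0.91 and 2.06 in XY, the second of them above background. The XX IP was at least 1.66-fold below its input (measured difference -1.45, SE 0.46, adjusted p = 0.0224) and so did not reach 4-fold. The XY IP was 0.81 below its input (SE 0.46, adjusted p = 0.18) and did not pass.

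Among the factors of crossover formation, both subunits of the MSH4-MSH5 dimer were measured in the XX inputs and in no other group. The Msh4 probe A_51_P288855 (mm8 chr3:153798360-153800781) had -0.61 and -0.75 in the XX inputs, -0.93 and -1.72 in the XX IPs, -4.15 and -3.65 in the XY inputs and -1.06 and -1.86 in the XY IPs. Its XX input was at least 4.65-fold above the XY input (measured difference 3.22, SE 0.45, adjusted p = 0.000575). The lowest signal that could be measured in the XX IP was 2.52-fold above this input level, so that a smaller enrichment of Msh4 was not detectable.

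Msh5 had 3 probes, which disagreed in level. A_51_P429865 (mm8 chr17:34636885-34637287) had -0.16 and 0.01 in the XX inputs, -0.53 and -0.70 in the XX IPs, -5.16 and -4.99 in the XY inputs and -1.29 and -2.21 in the XY IPs. The XX input was at least 7.08-fold above the XY input (measured difference 5.00, SE 0.42, adjusted p = 2e-05). A_52_P326240 (mm8 chr17:34652478-34653212), 15593 bases further along the chromosome, had -1.40 and -1.92 in the XX inputs, -1.18 and -1.91 in the XX IPs, -3.71 and -4.59 in the XY inputs and -1.14 and -1.53 in the XY IPs. For it the XX input was at least 2.36-fold higher (measured difference 2.49, SE 0.46, adjusted p = 0.00352), and 13 of 20 alternatives kept this call. It was lost, among others, under quantile normalization (1.50) and without the second XY input, where the difference was 2.05. A_52_P297836 (mm8 chr17:34652627-34652686) lies within the placement of the preceding probe and was above background on no array. It had -4.62 and -3.65 in the XX inputs and -5.19 and -4.68 in the XY inputs, and -0.86, -1.64, 0.54 and -1.85 in the XX and XY IPs.

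Hfm1 and Tex11 were at or near background throughout. The Hfm1 probe (A_51_P213945, mm8 chr5:107151400-107151743) had -3.31 and -3.29 in the XX inputs and -5.14 and -4.80 in the XY inputs, none above background. Its IP levels were -0.91 and -1.66 in XX and -1.12 and -1.95 in XY. The Tex11 probe (A_52_P384690, mm8 chrX:97087097-97106511) had -2.80 and -2.83 in the XX inputs, -1.12 and -1.95 in the XX IPs, -2.72 and -2.63 in the XY inputs and -1.23 and -2.12 in the XY IPs. It was above background on 1 XX input, both XY inputs and no IP. The inputs differed by -0.14 (SE 0.45, adjusted p = 0.913), with a 95% interval of -1.12 to 0.84. The lowest measurable IP signal was 11.0-fold above the XX input of Tex11 and 8.83-fold above its XY input.

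Ccnb1ip1 stood apart from the other members in the IPs. Its probe A_52_P255959 (mm8 chr14:49711593-49711652) was above background on all 8 arrays, the only one of the 14. In processed scanner units its signal was 1526 and 734 in the XX inputs, 2626 and 6216 in the XX IPs, 289 and 193 in the XY inputs and 243 and 788 in the XY IPs, although 50 ng of input RNA and 1 ng of IP RNA were labelled. After scaling its level was 3.14 and 3.25 in the XX inputs, 8.19 and 8.95 in the XX IPs, 1.29 and 1.25 in the XY inputs and 5.16 and 5.91 in the XY IPs. Every IP lay above every input of either sex, and every XX array lay above the XY arrays of the same kind.

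The XX IP of Ccnb1ip1 was 41.6-fold above its input (log2 difference 5.38, SE 0.43, adjusted p = 5.95e-05). The XY IP was 19.2-fold above its input (4.26, SE 0.43, adjusted p = 6.31e-05). Over the alternatives the log2 difference ranged from 3.30 to 5.76 in XX and from 1.99 to 4.64 in XY. The XY call was lost with normexp (1.99), and both were lost with the unmoderated test (adjusted p = 0.101 and 0.099). Among probes measured on each of the 4 arrays of a sex, this difference ranked 3 of 5567 in XX and 94 of 5481 in XY. The XX minus XY difference in enrichment was 1.12 (SE 0.61, adjusted p = 0.405), with a 95% interval of -0.21 to 2.45, and did not pass. The XX input was 3.79-fold above the XY input (1.92, SE 0.43, adjusted p = 0.0115), a call that was lost when any 1 of the 4 inputs was left out, with adjusted p from 0.079 to 0.106 and a difference of 1.87 to 1.97.

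The genes whose levels followed those of Ccnb1ip1 most closely over the 8 arrays were sought among 3944 other probes of named genes above background on all arrays. The highest Pearson correlations were 0.999 each for Setd5 (A_52_P135185), Trp53inp1 (A_51_P175580) and Tsc22d3 (A_51_P235821). Setd5 averaged 0.59 in XX input and 5.27 in XX IP, and -1.00 in XY input and 2.70 in XY IP. These are descriptions over 8 arrays in 4 groups, and the points share arrays and scaling.

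Counted against the limits, 1 of the 11 tested member probes was at least 4-fold higher in the XX IP at an adjusted p under 0.05, that of Ccnb1ip1, and 2 were lower, both of Psmc3ip. Over all 18265 probes tested, 14.0% were higher and 9.91% were lower in this contrast. Of the probes above background on both XX IP arrays, 26.8% were called higher, and of those above background on neither it was 8.06%. The median of the 11 differences was 0.12, and that of all tested probes was 0.09. These counts rest on 1 and 2 probes, the lower ones of a single gene, and nothing is read from them about the members as a group.

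In XY, 6 of the 11 probes passed the same limits as higher and 1 as lower, the latter being A_51_P256706 of Psmc3ip. Over all tested probes 10.2% were higher and 7.68% lower. Of the 6 probes only that of Ccnb1ip1 was above background on an XY IP array. The other 5, of Dmc1, Msh4, Msh5 (A_51_P429865 and A_52_P326240) and Spo11 (A_51_P290542), were above background on neither XY IP, and 4 of them on no XY array at all. Their differences were 2.92, 2.44, 3.33, 2.82 and 2.59, all within the range of the probes that were above background nowhere, and no fold is given for them. Among all tested probes above background on both XY IPs 20.0% were called higher, and among those above background on neither it was 5.72%. The 5 calls were lost under scaling to the 50th percentile, where the differences were 1.05, 0.58, 1.46, 0.95 and 0.73. That scaling lowers all probes alike and moved the median of all tested probes from -0.03 to -1.90. With quantile normalization the 5 calls were lost as well, with differences of -0.12, 0.27, 0.004, 0.29 and 1.97 in the same order. The members' median difference of 2.44 in XY, against -0.03 for all tested probes, rests on these probes. The plot of IP against input shows them beside that range.

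**Figure D2:**
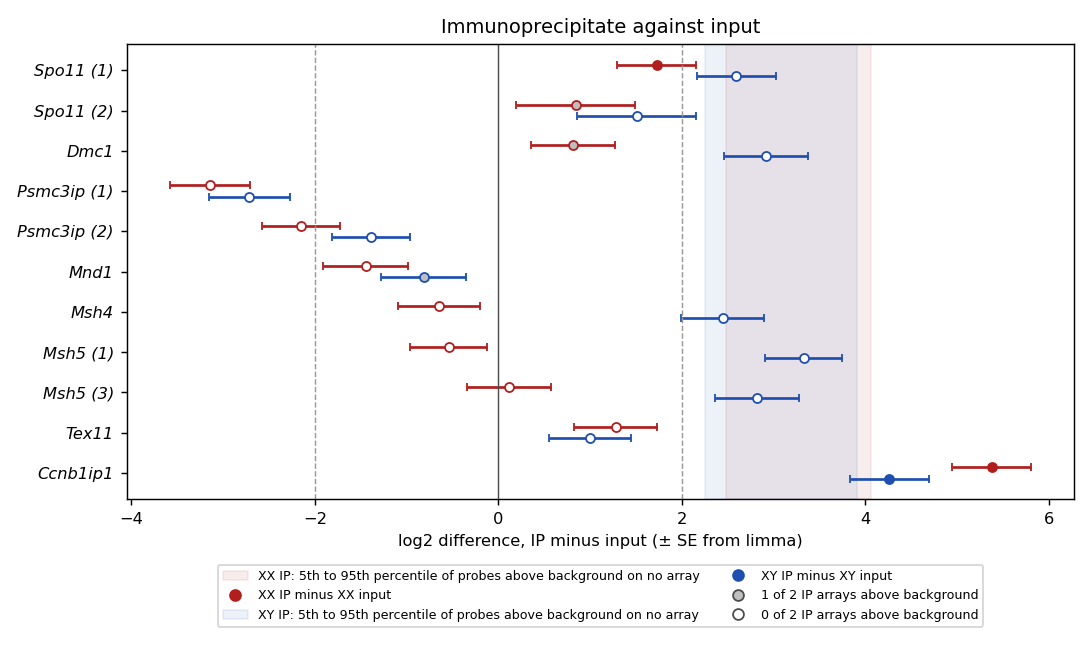
Log2 difference of IP minus input for the 11 tested probes, as limma estimates with SE from 2 arrays a group, XX in red and XY in blue, with dashed lines at 4-fold. Shaded bands span the 5th to 95th percentiles of the 18009 probes above background on no array (2.48 to 4.07 in XX, 2.25 to 3.90 in XY), and of the members only Ccnb1ip1, at 5.38 and 4.26, lies above its band.

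The difference in enrichment between the sexes was tested directly, and 3 of the 11 probes passed, all with a lower value in XX. Over all tested probes 1.12% had a lower and 2.18% a higher value in XX. The 3 were Msh4 with -3.09 (SE 0.64, adjusted p = 0.0247) and Msh5 with -3.87 (A_51_P429865, SE 0.59, adjusted p = 0.00703) and -2.70 (A_52_P326240, SE 0.65, adjusted p = 0.0435). None of them was above background on any IP array of either sex, and the IP levels of the sexes overlapped for Msh4 and for the second of these Msh5 probes. The differences between the inputs of these probes were 3.22, 5.00 and 2.49 in the opposite direction. Under scaling to the 50th percentile the differences were -3.23, -4.01 and -2.85 and none passed, with adjusted p of 0.086, 0.059 and 0.181. The call of Msh4 was also lost when any 1 of the inputs was left out, with differences of -3.34 to -2.84 and adjusted p from 0.056 to 0.117. That of A_52_P326240 was lost without any 1 array but the second XY IP, with differences of -3.14 to -2.26 and adjusted p from 0.055 to 0.248.

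In the inputs, 7 of the 11 probes were higher in XX at an adjusted p under 0.05 and 0 were lower. Over all tested probes 5.87% were higher and 6.10% lower, and the members' median difference was 2.49 against -0.003 for all. Of the 7, 6 entered the tests only because both arrays of an XX group were above background. The count, the median and the adjusted p-values of these 6 are therefore a description. Only Ccnb1ip1 also passed the filter through the XY arrays. The 7 probes stood for Spo11, Dmc1, Msh4, Msh5 and Ccnb1ip1, while Psmc3ip, Mnd1 and Tex11 did not pass. Without the second XY input 4 of the 7 passed, those lost being the lower probes of Spo11 and Msh5 and Ccnb1ip1. With normexp 1 member probe passed, that of Ccnb1ip1, with a common floor 1 passed, A_52_P238044 of Psmc3ip, and with the adjusted unmoderated test 2, A_51_P429865 of Msh5 and Ccnb1ip1. Under normexp the differences of Dmc1, Msh4, Msh5 and Spo11 were -0.20 to 1.00 and none passed, and under the floor they were 0. Markers of XX germ cells that enter meiosis (Stra8, Sycp3, Sycp1 and Rec8) differed likewise, with a summed linear level of 167 to 174 in the XX inputs and 6.74 to 7.33 in the XY inputs. The summed level of 6 general germ cell markers was 66.4 to 74.9 in XX and 184 to 212 in XY. Of these 6, Dppa3, Dnd1, Pou5f1 and Tdrd1 were lower in XX, by differences of -4.33 to -3.29, while Ddx4 with -0.19 (adjusted p = 0.845) and Mael with -0.84 (adjusted p = 0.247) did not pass. Markers of the supporting cells and Leydig cells differed between the inputs as well, since 4 of 4 XY supporting cell markers were above background on both XY inputs against 2 of 4 on both XX inputs, and the part of the makeup of the gonads in the members' differences was not tested.

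Since Dmc1, Msh4 and Msh5 were above background in the XX inputs and in no XY input, the sequences before their starts are shown, with that of Ccnb1ip1, which was measured in both. The RefSeq table gave a promoter window for 8 of the 10 genes, on GRCm38.p6, and the 250 bases before the start are printed 5′ to 3′ on the gene's strand (minus for all). They lie at chr15:79605110-79605359 for Dmc1, chr3:153904892-153905141 for Msh4, chr17:35046623-35046872 for Msh5 and chr14:50795729-50795978 for Ccnb1ip1. Capitals mark matches on either strand to CACGTG (an E-box), to CCTCAG (a motif described for the meiotic factor STRA8) or to TTCCCGC (bound by E2F factors).
Dmc1: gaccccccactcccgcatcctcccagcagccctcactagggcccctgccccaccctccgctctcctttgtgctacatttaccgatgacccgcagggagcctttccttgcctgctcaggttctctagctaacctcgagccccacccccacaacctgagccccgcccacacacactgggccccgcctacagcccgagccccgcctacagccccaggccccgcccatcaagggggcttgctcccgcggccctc
Msh4: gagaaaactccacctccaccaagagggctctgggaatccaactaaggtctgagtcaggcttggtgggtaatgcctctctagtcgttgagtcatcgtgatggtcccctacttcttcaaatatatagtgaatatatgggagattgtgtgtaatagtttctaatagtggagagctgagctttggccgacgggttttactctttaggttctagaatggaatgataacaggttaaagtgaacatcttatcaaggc
Msh5: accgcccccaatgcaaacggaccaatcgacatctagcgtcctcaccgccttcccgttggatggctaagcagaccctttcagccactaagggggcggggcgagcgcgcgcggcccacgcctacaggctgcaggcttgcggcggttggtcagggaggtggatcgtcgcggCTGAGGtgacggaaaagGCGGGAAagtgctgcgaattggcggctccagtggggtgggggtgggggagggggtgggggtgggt
Ccnb1ip1: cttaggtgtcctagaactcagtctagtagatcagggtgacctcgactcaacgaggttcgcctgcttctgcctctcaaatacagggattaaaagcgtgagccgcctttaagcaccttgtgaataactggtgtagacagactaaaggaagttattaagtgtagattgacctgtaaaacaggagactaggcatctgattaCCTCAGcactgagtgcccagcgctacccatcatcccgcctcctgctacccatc

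The Msh5 window held CCTCAG on the reverse strand 82 bases before the start, and TTCCCGC on the reverse strand 65 bases before it. The Ccnb1ip1 window held CCTCAG 53 bases before the start. Neither Dmc1 nor Msh4 held any of the 3 in these 250 bases. Of the genes detected on no array, Hfm1 held CCTCAG 3 times, 136, 73 and 66 bases before the start, and 1 of the windows of Prdm9 held CCTCAG and TTCCCGC, 39 and 47 bases before it. Among all 32851 windows, 22.3% held CCTCAG, 3.82% held TTCCCGC and 6.02% held CACGTG. The windows also differed in composition, with 68.8% G or C for Dmc1, 67.2% for Msh5, 48.8% for Ccnb1ip1 and 43.6% for Msh4, against a median of 52.4%. A match is a description of the letters and not a bound site.

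Other genes of the pathway were taken from a list of 47, of which 43 had a probe and 38, with 49 probes, were tested. In the inputs 12 probes of 10 of these genes were higher in XX and 0 were lower, against 5.87% and 6.10% of all tested probes, and the median difference was 0.69 against -0.003. Of the 12, 3 entered the tests only through the XX arrays. The count, the median and the adjusted p-values of these 3 are a description. Over the alternatives the count of higher probes ran from 1 to 27. The genes of break formation had the highest median, 3.47 over 7 probes, and 4 of their 5 tested genes were higher in XX. Mei1, needed for break formation, had 3.74 and 3.74 in the XX inputs and -1.84 and -1.44 in the XY inputs, a 41.6-fold difference (adjusted p = 1.32e-05). Iho1, which recruits the break machinery to chromosome axes, differed by 4.58 and the axis protein genes Hormad1 (2 probes) and Hormad2 by 4.46, 2.95 and 3.47, while Rec114 did not pass. The first of these Hormad1 probes was above background on neither XY input, and its bound was at least 13.6-fold.

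Of the 17 tested genes of strand exchange, 4 were higher in the XX input. Meiob, which encodes a single-strand DNA-binding protein of meiosis, had 4.54 and 4.57 in the XX inputs against -1.07 and -1.42 in the XY inputs, a difference of 5.80 (SE 0.40, adjusted p = 5.12e-06). Hsf2bp, whose product binds BRCA2, was above background on neither XY input and was at least 1.76-fold higher in XX (log2 difference 2.93, SE 0.54, adjusted p = 0.00354). It entered the tests only through the XX inputs, so that this p is a description. Brme1 and Brca2, measured on all 4 inputs, were 7.23-fold and 3.22-fold higher. Of the 6 tested genes of end processing and signalling 1 was higher, and of the 10 of crossover formation and resolution 1 was. Beyond the 6 genes named by the size of their difference, the other 4 were Brme1, Brca2, Atm and Mcm8, named here only because they complete the count, with differences of 1.34 to 2.85. The medians were 0.65 for end processing and signalling, 0.24 for strand exchange and 0.59 for crossover formation and resolution. The plot of the inputs sets them beside the members.

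**Figure D3:**
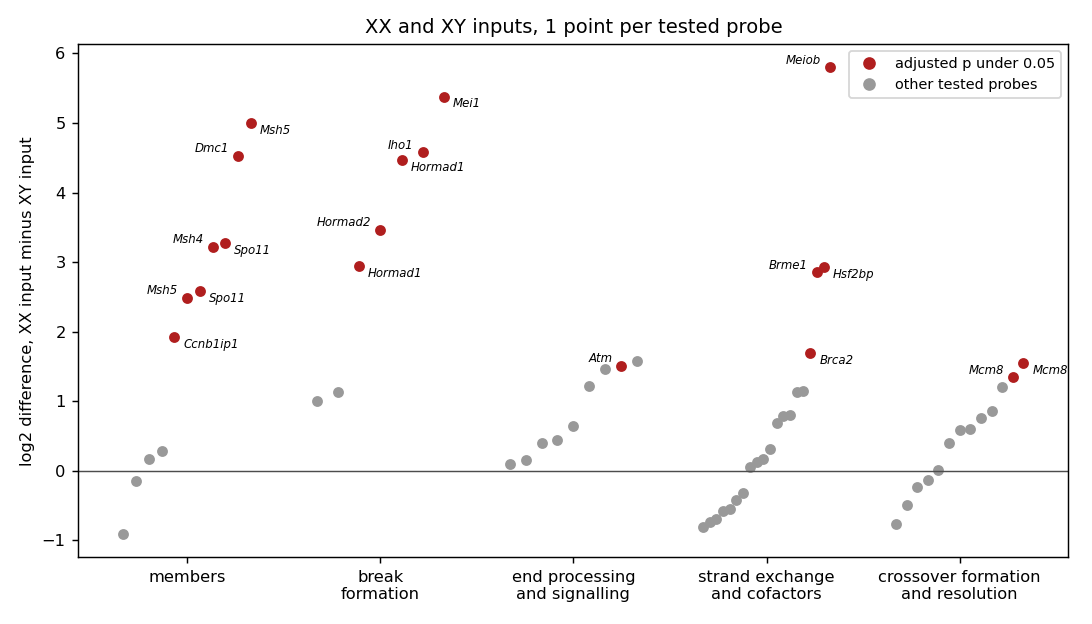
Log2 difference of XX input minus XY input for each of the 11 member probes and 49 probes of other recombination genes, in groups by role, with red points at an adjusted p under 0.05. Red points reach 5.00 among the members (Msh5, not above background in XY), 5.38 in break formation (Mei1) and 5.80 in strand exchange (Meiob), but only 1.51 and 1.55 in the other groups.

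In the XX IP, 8 probes of 6 genes were at least 4-fold higher and 2 probes of 2 genes lower, with a median of 0.42 over the 49 probes, against 14.0% and 9.91% of all tested probes and a median of 0.09. The share of higher calls was near that background, and the genes are named as a description. Gen1, which encodes a Holliday junction resolvase, rose from 0.16 and -0.01 to 3.50 and 3.90, that is, 12.3-fold (A_52_P205951, adjusted p = 8.6e-05), while its other tested probe was above background on neither XX IP and did not pass. Rbbp8, which encodes the end-resection factor CtIP, rose from 4.16 and 4.19 to 7.58 and 7.38, or 9.90-fold (adjusted p = 0.000149). Sfr1, the partner of SWI5, rose 9.41-fold, Iho1 8.73-fold and Rpa2, a subunit of the single-strand binding protein RPA, 4.84-fold and 5.98-fold at its 2 probes. Smaller in measured difference, and named only to account for more of the calls, were Fignl1, 4.46-fold and 4.81-fold higher at its 2 probes, and Rec114, at least 2.41-fold lower at 1 of 2 probes.

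In XY, 5 probes of 5 genes of the list passed as higher, 3 of them above background on both XY IPs, and 1 as lower, with a median of 0.30. Among all tested probes 10.2% were higher and 7.68% lower, so that the share of higher calls was that of the background. Rbbp8 rose 20.4-fold, from 3.46 and 3.59 to 8.29 and 7.46 (adjusted p = 4.29e-05), Rpa2 5.07-fold at 1 of its 2 probes and Sfr1 4.43-fold. The other probes that passed as higher, 1 each of Hsf2bp and Mcm8, were above background on no XY array and have no fold. The difference between the sexes passed for Iho1 alone, at 2.84 (SE 0.59, adjusted p = 0.0247). This call was lost when any 1 of the 4 inputs was left out, with differences of 2.79 to 2.89 and adjusted p from 0.096 to 0.117, and under scaling to the 50th percentile, with 2.70 and an adjusted p of 0.200. With the replicate number as a block 3 probes passed, those of Iho1 and 2 of Fignl1, the latter named after their values were seen. Iho1 had 2.62 and 2.66 in the XX inputs, 5.48 and 6.05 in the XX IPs, -1.99 and -1.88 in the XY inputs and -1.31 and -2.00 in the XY IPs, where neither IP was above background. With the XY IP at its lowest measurable level the difference would be 0.72, so that 2.84 is not a measured size. The plot of the IP differences of both sexes shows Ccnb1ip1 farthest along the XX axis.

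**Figure D4:**
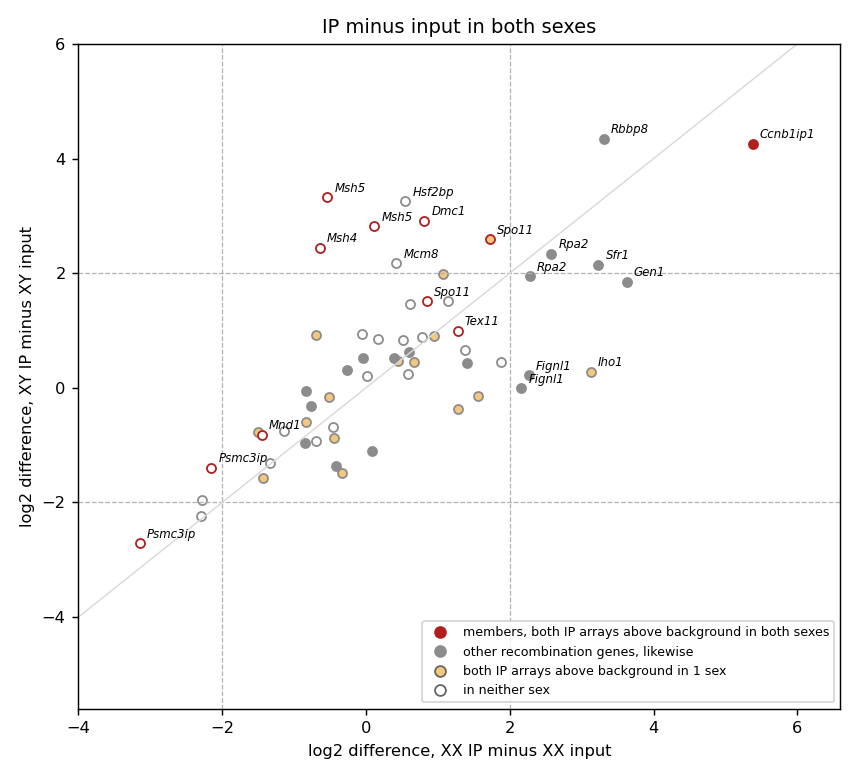
Log2 difference of IP minus input in XX (horizontal) and XY (vertical) for the 11 member probes (red outlines) and the 49 probes of other recombination genes (grey outlines), with dashed lines at 4-fold and a grey line of equality. Points filled in their own colour were measured above background on all 4 IP arrays, and at the upper right these are Ccnb1ip1 (5.38, 4.26), Rbbp8 (3.31, 4.35), Sfr1 (3.23, 2.15), Gen1 and both Rpa2 probes, while Dmc1, Msh4 and Msh5 are open points above the upper 4-fold line for XY and between the 4-fold lines for XX.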

How the data were processed

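The 8 samples were measured on Agilent mouse arrays with 1 dye (Cy3). Per the file headers, the deposited scanner files give the processed signal intensity of each spot, background-subtracted by Feature Extraction 9.5.3.1 and not normalized between arrays, with marks for spots well above background; the submitters' processing notes name version 9.5. The authors also deposited a table of log2 values, which per the methods were raised to at least 1 and shifted to the 75th percentile of the array, and which served as an alternative.

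Spots marked as outlying were dropped, 1 was the floor of the signal, and the mean over the spots of a probe was taken to log2 and centred on the 75th percentile of its array. Of 41174 probes, 73 lacked a value on some array, and the 18265 tested were those well above background on both arrays of some group. Linear models (limma 3.58.1, R 4.3.3) with 1 mean per group were fitted to all 8 arrays, with 4 residual and 7.82 prior degrees of freedom, and all adjusted p-values are two-sided and by the Benjamini-Hochberg method over 18265 probes. IP contrasts were called at an adjusted p under 0.05 and at least 4-fold, the others at an adjusted p under 0.05. Where a group was not above background, "at least" compares with its own signal or, where higher, the lowest signal well above background on that array, averaged over arrays. That lowest signal is taken over the whole array, and some probes above it were not marked as above background. The bounds are thus approximate. On simulated data for XX IP minus XX input, 194 of 200 probes changed 8-fold were found among 18265, with 7 false calls. Apart from these changes the simulated arrays shared 1 mean per probe, with independent noise. They had no background level and no dim IP arrays, so that false calls at background were not covered. Precision is limited by having 2 arrays in each group, and nothing in the labels says whether lots or labellings were separate, so that p-values measure the spread between these arrays.

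All member genes were named with every probe. Of 47 other recombination genes, those past a contrast's limits were counted, with the number above background on both arrays of the higher group where it was smaller, and up to 6 of the latter per contrast were named by size; 1 gene called lower in both IPs is counted but not reported here. Members, lists and tests were chosen with earlier results of these data known. Probe positions are those of the files (mm8), for which no annotation was at hand, so exons and transcript ends are not given. Probe sequences were not used here. Of the probes, 23366 were named by accession, 6739 by symbol and 2919 by an older symbol in the RefSeq gene table of GRCm38.p6, and 8150 had no name in it. Alternatives covered scaling, background correction, floor, filter, arrays in the fit, test, source of values, replicate block and each array left out.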

Additional observations from a re-analysis of the deposited data

Results flagged for a closer look

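The difference in enrichment between XX and XY passed its own test (limma, adjusted p under 0.05) for 3 member probes and 1 probe of another recombination gene. The XX minus XY difference in IP minus input was -3.09 for Msh4 (A_51_P288855), -2.70 for Msh5 (A_52_P326240), -3.87 for Msh5 (A_51_P429865) and 2.84 for Iho1 (A_52_P557430). The Msh4 and Msh5 probes were above background on both XX inputs and on no IP array of either sex, so that no enrichment was measured for them in either sex. Iho1 was above background on both XX IPs and on neither XY IP. The calls of Msh4, Msh5 (A_52_P326240) and Iho1 were lost when any 1 of the 4 inputs was left out, and all 4 calls were lost under scaling to the 50th percentile. The sexes were hybridized on different slides, and slide and sex cannot be told apart.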

How the results depend on the processing

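Among 851 repeats of the members' differences under other settings, 692 kept their direction and their side of the limits, 112 no longer passed, 13 newly passed, 4 that passed in one of the fits changed direction and 30 changed sign without passing in either. The main counts of member probes were 1 higher and 2 lower for the XX IP, 6 and 1 for the XY IP, 0 and 3 in the difference of the sexes, and 7 and 0 in the XX input. For the 49 probes of other recombination genes they were 8 and 2, 5 and 1, 1 and 0, and 12 and 0. Under scaling to the 50th percentile the median of all tested probes moved to -1.92 in XX and -1.90 in XY, 189 probes were called higher and 8643 lower in XX against 2566 and 1810, and 219 and 8379 in XY against 1861 and 1403. The member counts were then 1 and 5, 1 and 3, 0 and 0, and 5 and 0, those of the others 0 and 20, 1 and 18, 0 and 0, and 8 and 0. This scaling moves all probes of an array alike, so that the distance of Psmc3ip from the median of all tested probes could not change.

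With the 75th percentile taken over probes above background on all arrays, no member passed in the difference (0), and the others had 5 and 2, 3 and 2, and 2 and 1 in the IPs and the difference. Quantile normalization gave the members 1 in the XY IP and 0 in the difference, the others 2 in the XY IP and 4 and 1 in the difference, and negative values for Dmc1 in XY (-0.12) and for Msh5 (A_52_P326240) in XX (-2.04). Normexp gave the members 1 and 0, 0 and 0, 0 and 0, and 1 and 0, and the others 0 and 4, 1 and 0, 0 and 0, and 11 and 0. Under it Msh5 (A_52_P326240) had 0.048 in the difference and -0.20 in the inputs. With outlying local backgrounds replaced the members had 1 and 0, 1 and 0, 0 and 0, and 4 and 0, and the others 0 and 4, 1 and 0, 0 and 2, and 18 and 0. A common floor, which sets values below the highest detection level of any array to it, gave the members 1 and 0, 1 and 0, 0 and 1, and 1 and 0, and the others 8 and 0, 3 and 0, 3 and 3, and 10 and 0. Without a filter on dim probes the members had 4 higher for XX IP, 9 for XY IP and 0 in the difference, and the others 27, 27 and 0. Restricted to probes measured on every array, which leaves 1 member probe, Ccnb1ip1 was called higher in 1 of 1, 1 of 1 and 1 of 1 of the XX IP, XY IP and inputs, 0 were lower or differed, and the others had 7 and 0, 3 and 0, 2 and 0, and 1 and 0.

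With only the compared arrays in the fit, Mnd1 was lower in the XX input (1), and the others had 27 and 6 there. The unmoderated test, adjusted, gave the members 0 and 0 in both IPs and 2 in the inputs, and the others 0 and 0 in both IPs and 12 and 1 in the inputs; unadjusted it gave 1 member lower in the XX input, and the others 0 lower in the XX IP and 26 and 5 in the inputs. The authors' processed values gave the main counts for members and others. With the replicate number as a block the member counts were 1 and 2, 6 and 1, 0 and 3, and 7 and 0, and the others' were 3 in the difference and 16 in the inputs, with no other change. The numbers did not pair IP with input by their correlation (0.03 in XX, 0.14 in XY), although same-numbered inputs and IPs of the sexes correlated (0.52 and 0.54). The cause of the differences between settings was not tested.

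Without 1 array at a time, the member counts ranged from 1 to 2 higher and 2 to 2 lower for XX IP, 6 to 7 and 1 to 1 for XY IP, 0 to 0 and 1 to 4 in the difference (1 without any 1 of the inputs), and 4 to 7 and 0 to 0 in the inputs (4 without XY input replicate 2). Those of the others ranged from 7 to 8 and 0 to 2 for XX IP (0 lower without XX IP replicate 1), 5 to 6 and 1 to 2 for XY IP, 0 to 3 and 0 to 1 in the difference, and 7 to 18 and 0 to 0 in the inputs (7 without XX input replicate 2). Where an array was left out, the lone array of its group was assumed to vary like the other groups. Ccnb1ip1 kept a positive difference in both IPs under all 21 alternatives.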
